A study of Mus musculus with 10 samples.

Results

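Gch1 and the 4 other enzymes that make or regenerate tetrahydrobiopterin were followed in 32Dcl3 cells, an IL-3-dependent line of mouse myeloblasts, while transcription was blocked. The members are all probe sets whose gene symbol in the platform annotation is Gch1, Pts, Spr, Qdpr or Pcbd1, which gave 7 of the 22690 probe sets on the array, 2 for Gch1, 2 for Qdpr and 1 for each of the others. They stand for 5 of the 12394 genes that the annotation names singly. No further probe set held a member among several genes. Gch1 was picked because it stands near the top of the ranking for IL-3 effect in these same data, so its differences between high and low IL-3, their change with time and its ratios to 0 h are given as descriptions without a test. The other enzymes were picked by pathway, with earlier results of these data known, and were tested.

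Gch1 encodes GTP cyclohydrolase 1, which opens the pathway by converting GTP to dihydroneopterin triphosphate and usually sets its rate. Pts, 6-pyruvoyltetrahydropterin synthase, and Spr, sepiapterin reductase, complete the synthesis of tetrahydrobiopterin, the cofactor of the aromatic amino acid hydroxylases and the nitric oxide synthases. Used cofactor is regenerated by Pcbd1, pterin-4a-carbinolamine dehydratase, which also serves as a dimerization cofactor of HNF1 transcription factors, and then by Qdpr, dihydropteridine reductase.

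The study asked whether IL-3 alters the turnover of transcripts. Cells were washed free of IL-3, received actinomycin D, which stops transcription, at 10 µg/ml, and were then given high IL-3 (1 ng/ml) or low IL-3 (10 pg/ml). Total RNA from 0 h, 2 h and 4 h was hybridized to Affymetrix mouse expression arrays. There were 5 groups (0 h, high IL-3 at 2 h and 4 h, low IL-3 at 2 h and 4 h), each with 1 array in each of 2 experiments, and the 10 arrays of the study were all used. The labels give different accounts of whether the 0 h cells had already met actinomycin D. All groups share the wash and a single cell line, and the groups of an experiment were parts of 1 divided culture. The limma fit takes out the shift in level between the 2 cultures. Its p-values thus rest on how far differences between groups varied from 1 culture to the other. The spread of each probe set was drawn toward that of probe sets of like signal. In bulk RNA, fewer cells holding a transcript and less of it per cell cannot be told apart. A change is thus measured against the RNA on the same array. With transcription blocked, the study takes any value at 2 h or 4 h above 0 h as measurement noise. A rise given below is one of array signal, and what lies behind it was not tested.

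Across arrays the median intensity ran from 48.8 to 70.6, and between 11280 and 12155 probe sets reached 50. Gapdh, the loading control of the study, differed between the media on the log2 scale by -0.01, -0.01 and -0.03 in its 3 probe sets (adjusted p = 0.966, 0.965 and 0.905, limma). Of 10 myeloblast markers, 7 had a mean of at least 50, among them Mpo and Ctsg, whereas the defining markers Elane, Kit and Cd34 were at 19.6, 7.98 and 5.83. The myeloblast markers summed to between 12062 and 13453 on the arrays of experiment 1 and between 7459.8 and 8162 on those of experiment 2. Of 3 macrophage markers 2 reached 50 (Adgre1 and Csf1r, but not Cd14 at 7.40), with sums of 2629.5 to 3395, and of 3 mast cell markers 2 did (Cpa3 and Fcer1a, but not Mcpt4 at 4.32), with sums of 916 to 2068. No lymphoid, erythroid or fibroblast marker on the array reached 50. The part of such cell composition in the results was not tested.

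Gch1 signal at 4 h was lower under low IL-3 than under high IL-3 in both of its probe sets. Under low IL-3 it was below its 0 h level in both. Under high IL-3 it was below that level in the first probe set but near it in the second. In the first Gch1 probe set, 1420499_at, intensity in experiment 1 was 290.2 at 0 h, 275 and 188 at 2 h and 4 h under high IL-3, and 165 and 76.5 at 2 h and 4 h under low IL-3. In experiment 2 it was 498 at 0 h, 442 and 303 under high IL-3, and 214 and 139 under low IL-3. Every value under high IL-3 thus exceeded the value under low IL-3 of the same experiment and hour. The ratio of high to low IL-3 was 1.66 at 2 h and 2.46 at 4 h in experiment 1, and 2.07 and 2.17 in experiment 2. Among all 11856 probe sets tested, 9.83% were likewise higher under high IL-3 in all 4 such pairs, and 7.51% were lower in all 4. The raw intensities of the 2 media did not overlap at either hour. With 2 arrays per group, the share of all probe sets that separate in this way was not counted, here or for the probe sets below. Such separation is therefore a description without a background and not a result about these genes.

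Relative to the 0 h array of its experiment, the same probe set stood at 91.8% ± 4.14 (SD, n = 2) after 2 h under high IL-3 and at 62.8% ± 2.82 after 4 h. Under low IL-3 it stood at 49.9% ± 9.86 after 2 h and at 27.2% ± 1.15 after 4 h. The order from highest to lowest was therefore 0 h, high IL-3 at 2 h, high IL-3 at 4 h, low IL-3 at 2 h and low IL-3 at 4 h in both experiments. Where the media meet in that order, high IL-3 at 4 h stood at 64.8% and 60.8%, and low IL-3 at 2 h at 56.9% and 42.9%. As raw intensities these groups overlapped, with 188 and 303 against 165 and 214. For signal kept over the first 2 h, the probe set was at percentile 43.9 of all probe sets tested under high IL-3 and at percentile 9.4 under low IL-3. From 2 h to 4 h it kept 68.5% ± 0.0127 under high IL-3 and 55.7% ± 13.3 under low IL-3, at percentiles 15.3 and 6.8. The 2 values behind the latter mean were 46.3% and 65.1%, and the medians over all probe sets tested were 96.8% and 96.2%.

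**Figure D1:**
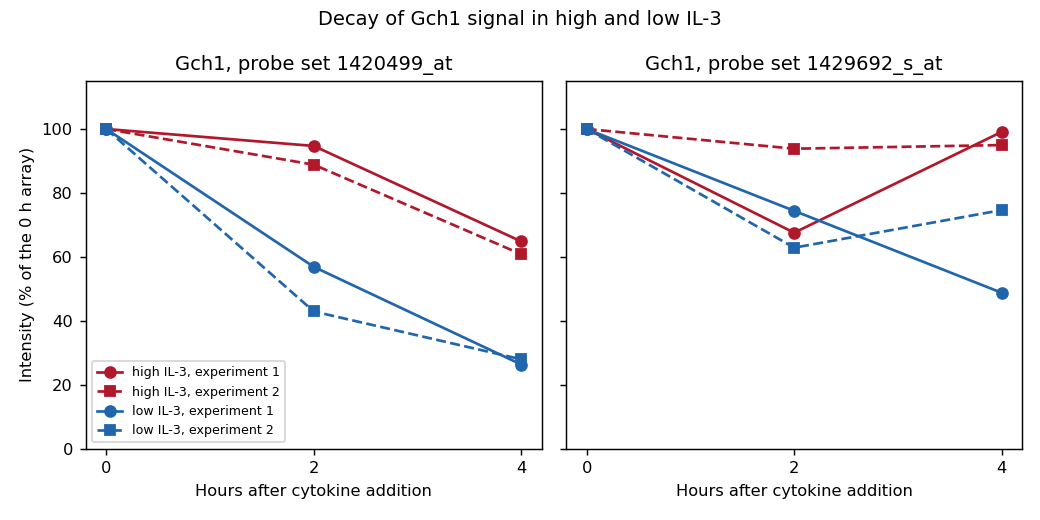
Signal of the 2 Gch1 probe sets as a percentage of that at 0 h in the same experiment (y axis) against hours after cytokine addition (x axis), with 1 line for each medium and experiment. In 1420499_at the lines for high IL-3 end at 64.8% and 60.8% and those for low IL-3 at 26.3% and 28.0%, while in 1429692_s_at the lines cross in experiment 1.

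A half-life fitted through the ratios to 0 h was 7.52 and 6.23 h under high IL-3 in experiments 1 and 2 (mean 6.88 ± 0.912, SD, n = 2), which reaches past the last sample at 4 h. Under low IL-3 it was 2.14 and 2.04 h (mean 2.09 ± 0.0707). Half-lives were fitted to the deposited scaling only, and their SD does not cover a change of scaling. With the 75th percentile and quantile normalization, the log2 change over 4 h went from -0.64 to -0.23 in both cases under high IL-3. Under low IL-3 it went from -1.73 to -1.32 and -1.30. On the log2(intensity + 16) scale, the high minus low difference averaged over both hours was 0.96 (SE 0.11), with 0.91 in experiment 1 and 1.02 in experiment 2. This lay at percentile 99.9 of all probe sets tested. A stabilization score, the area between the 2 decay curves divided by the variability at like signal, was recomputed after the study's supplemental methods. The study leaves 6 outliers out of the variability without naming them in the text read, and the 6 largest differences were assumed here, so ranks need not be those of the study. The probe set scored 3.87 in this recomputation and ranked at 5 of 22690. Its rank was 14 and 3 from experiment 1 or 2 alone. Without the step that sets high IL-3 ratios above 1 to 1, its score was the same and its rank was 49.

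The second Gch1 probe set, 1429692_s_at, gave smaller and less regular differences. The suffix _s_at marks probes that can match more than 1 transcript. Its intensity in experiment 1 was 207 at 0 h, 140.1 and 205 at 2 h and 4 h under high IL-3, and 154 and 101 under low IL-3. In experiment 2 it was 160.1 at 0 h, 150.2 and 152 under high IL-3, and 101 and 119 under low IL-3. High IL-3 was above low IL-3 in 3 of 4 pairs, the exception being 2 h in experiment 1 with a ratio of 0.908. The other ratios ran from 1.27 to 2.03.

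In percent of 0 h, 1429692_s_at was at 80.7% ± 18.6 (SD, n = 2) and 97.0% ± 2.92 after 2 h and 4 h under high IL-3, and at 68.6% ± 8.15 and 61.7% ± 18.3 under low IL-3. High and low IL-3 overlapped at 2 h (67.6% and 93.8% against 74.4% and 62.9%) but not at 4 h (99.1% and 95.0% against 48.8% and 74.6%). The half-life fitted under low IL-3 was 4.00 and 6.61 h, longer in both experiments than the 2.14 and 2.04 h of 1420499_at. Under high IL-3 the fitted values of 16.9 and 41.6 h lie far outside the 4 h observed. The high minus low difference averaged over both hours was 0.40 (SE 0.14) on the log2(intensity + 16) scale, with 0.40 and 0.41 in the 2 experiments, at percentile 98.5. Its score of 1.41 ranked at 213, and at 1125 and 105 from experiment 1 or 2 alone. Without the limit on ratios its rank was 814, and with 75th percentile scaling its score was 0.68 and its rank 622, where 1420499_at had 3.54 and 5.

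Both Gch1 probe sets therefore had a positive difference in both experiments, and that of 1420499_at was the larger. Over 4 h under low IL-3, 1420499_at changed by -1.73 (SE 0.15) and 1429692_s_at by -0.65 (SE 0.19) on the log2(intensity + 16) scale. Over 4 h under high IL-3 the values were -0.64 (SE 0.15) and -0.04 (SE 0.19). These comparisons share the 0 h arrays. The median over all probe sets tested was -0.12 under low IL-3 and -0.10 under high IL-3. The small change of 1429692_s_at under high IL-3 had the opposite sign under other scalings of the arrays (0.36 with the 75th percentile, 0.40 with quantile normalization, 0.01 with Gapdh), whereas 1420499_at stayed below 0 in both media in all 19 alternatives. With the same scalings 1420499_at changed by -1.32, -1.30 and -1.71 under low IL-3 and by -0.23, -0.23 and -0.59 under high IL-3. The difference between the 2 probe sets was not tested, since 1 of them was chosen for its size.

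The change of the IL-3 difference from 2 h to 4 h comes from the same arrays that chose Gch1, and for Gch1 it is given without a test. The high minus low difference of 1420499_at was larger at 4 h than at 2 h by 0.25 on the log2(intensity + 16) scale (SE 0.21), with 0.46 in experiment 1 and 0.04 in experiment 2. For 1429692_s_at it was larger by 0.42 (SE 0.27), and the experiments had opposite signs, 1.04 and -0.20. Over the array, 0% of probe sets tested passed for this change in either direction (limma), and 684 had an unadjusted p under 0.05.

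The other enzymes of the pathway had no called difference between the media. None of the 4 probe sets of Pts, Spr and Qdpr that were bright enough to be tested passed in the contrast of high against low IL-3, in which 0.692% of all probe sets tested were called higher and 0.0169% lower. Their log2 differences ran from -0.10 to -0.01. None passed under any of 75 combinations of probe set and alternative setting, where the lowest adjusted p was 0.397. The only Pcbd1 probe set had a mean intensity of 14.6, under the minimum of 50, so that 6 of the 7 member probe sets and 4 of the 5 genes could be tested.

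Pts makes 6-pyruvoyltetrahydropterin from the product of Gch1. Its probe set 1450660_at had intensities in experiment 1 of 426 at 0 h, 445 and 502 at 2 h and 4 h under high IL-3, and 460.2 and 581 under low IL-3. In experiment 2 they were 338 at 0 h, 463 and 485 under high IL-3, and 419.8 and 551 under low IL-3. Both arrays of each 4 h group lay above both 0 h arrays, and those of low IL-3 lay above those of high IL-3 at 4 h. In percent of 0 h, Pts was at 131% ± 18.1 (SD, n = 2) after 4 h under high IL-3 and at 149.6% ± 18.9 under low IL-3.

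Pts signal rose over 4 h under low IL-3 by 0.56 on the log2(intensity + 16) scale (SE 0.13, adjusted p = 0.00222, limma), a direction in which 15.3% of all probe sets tested were called. It rose under high IL-3 by 0.36 (SE 0.13, adjusted p = 0.0349, limma), where 9.67% were called higher. The call under high IL-3 was lost without high IL-3 at 4 h from experiment 1 (adjusted p = 0.109) or 2 (0.195), without 0 h from experiment 2 (0.304), and without low IL-3 at 2 h from experiment 1 (0.0592) or 2 (0.0597). The high minus low difference over both hours was -0.07 (SE 0.09, 95% interval -0.27 to 0.13, adjusted p = 0.906, limma). Its change from 2 h to 4 h was -0.24 (adjusted p = 0.936, limma).

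Spr catalyses the last step of synthesis. Its probe set 1432372_a_at had intensities in experiment 1 of 102 at 0 h, 134 and 81.1 at 2 h and 4 h under high IL-3, and 93.6 and 97.1 under low IL-3. In experiment 2 they were 207 at 0 h, 225 and 193 under high IL-3, and 257 and 211 under low IL-3. The experiments differed more than the conditions did: experiment 2 was 1.68 to 2.75 times as bright as experiment 1 in all 5 groups. Spr was at 86.6% ± 9.87 (SD, n = 2) of 0 h after 4 h under high IL-3 and at 98.8% ± 4.87 under low IL-3.

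The change of Spr over 4 h was -0.01 under low IL-3 (SE 0.17, adjusted p = 0.949, limma) and -0.18 under high IL-3 (SE 0.17, adjusted p = 0.405, limma), and neither passed. The high minus low difference was -0.02 (SE 0.12, 95% interval -0.28 to 0.24, adjusted p = 0.986, limma). With quantile normalization the value under low IL-3 was 0.40 and passed (adjusted p = 0.0449).

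Qdpr returns quinonoid dihydrobiopterin to tetrahydrobiopterin. Its probe set 1423664_at had intensities in experiment 1 of 874 at 0 h, 989.8 and 1086 at 2 h and 4 h under high IL-3, and 956 and 1050.2 under low IL-3. In experiment 2 they were 994 at 0 h, 1087 and 1283 under high IL-3, and 1164 and 1336 under low IL-3. Here too the 4 h arrays of either medium were all above the 0 h arrays, while high and low IL-3 overlapped at both hours. The signal rose by 0.34 under low IL-3 (SE 0.10, adjusted p = 0.00998, limma) and by 0.34 under high IL-3 (SE 0.10, adjusted p = 0.0131, limma).

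The second Qdpr probe set, 1437993_x_at, whose suffix marks probes that may hybridize to other transcripts, had 2568 at 0 h in experiment 1, 2656 and 2828 under high IL-3, and 2807 and 2759 under low IL-3. In experiment 2 it had 2005 at 0 h, 2188 and 2405 under high IL-3, and 2429 and 2745 under low IL-3. At 4 h under low IL-3 both arrays lay above both 0 h arrays, and under high IL-3 the ranges overlapped. It rose under low IL-3 by 0.28 (SE 0.08, adjusted p = 0.0105, limma), and its value under high IL-3 was 0.20 (SE 0.08, adjusted p = 0.0614, limma).

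The calls on Qdpr rested on few arrays. Without 0 h from experiment 2 the adjusted p of 1423664_at was 0.0644 under low IL-3 and 0.0795 under high IL-3, and that of 1437993_x_at under low IL-3 was 0.143. Without low IL-3 at 4 h from experiment 2 those under low IL-3 were 0.0797 and 0.190. The call of 1423664_at under high IL-3 was also lost without high IL-3 at 4 h from experiment 1 (0.0817) or 2 (0.0921). For 1437993_x_at under high IL-3, the adjusted p fell below 0.05 without 0 h from experiment 1 (0.0339), without high IL-3 at 2 h from experiment 1 (0.0449) or 2 (0.0452), and without low IL-3 at 4 h from experiment 1 (0.0316) or 2 (0.0312). It also did so with the 75th percentile (0.63, adjusted p = 2.99e-05), quantile normalization (0.32, 0.00143) and Gapdh scaling (0.25, 0.0313), while its call under low IL-3 was lost without the variance trend (0.0678). Between media the Qdpr probe sets differed by -0.01 (95% interval -0.17 to 0.14, adjusted p = 0.981, limma) and -0.10 (-0.22 to 0.03, adjusted p = 0.729, limma), and the change of this difference from 2 h to 4 h was 0.02 and 0.04 (adjusted p = 0.993 and 0.992).

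**Figure D2:**
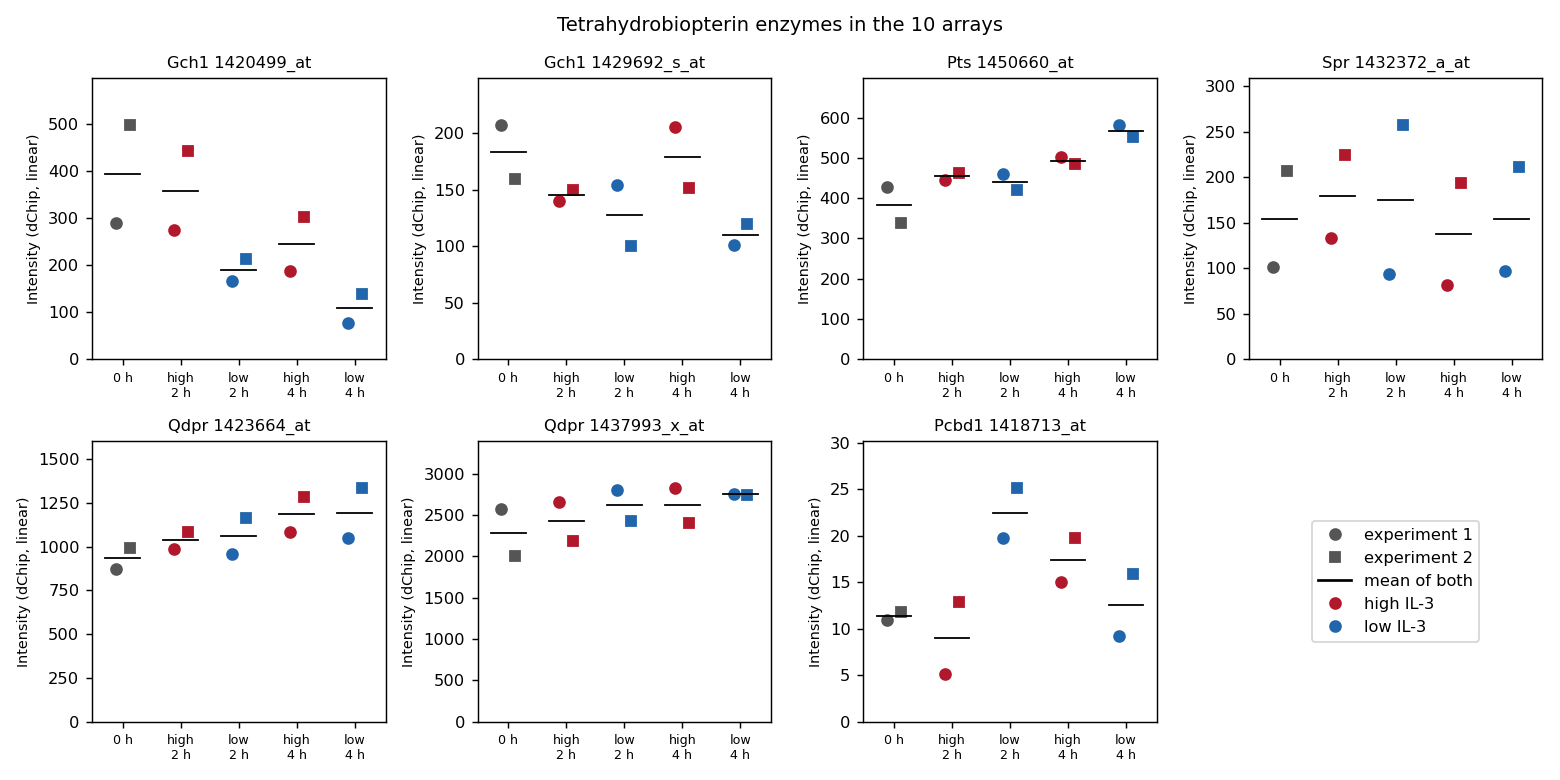
Intensity of the 7 member probe sets (y axis, linear from 0, a scale of its own in each panel) in the 5 groups (x axis), with 1 point for each of the 10 arrays and a symbol for each experiment. Gch1 1420499_at falls to 76.5 and 139 at 4 h under low IL-3, Pts reaches 581 and 551 there, and Spr separates by experiment.

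Of the 4 tested probe sets of the other enzymes, 3 were thus called higher over 4 h under low IL-3 and 2 under high IL-3, and none was called lower. The 3 are those of Pts and both of Qdpr, and the 2 are Pts and Qdpr 1423664_at. Over all probe sets tested, 15.3% were called higher and 38.3% lower under low IL-3, and 9.67% and 35.4% under high IL-3. The direction of calls over the array depends on the scaling: 28.6% of calls under low IL-3 and 21.4% under high IL-3 were higher here, against 67.2% and 69.4% with the 75th percentile and 60.4% and 62.1% with quantile normalization. Pts and both Qdpr probe sets stayed above 0 in all 19 alternatives, but their size moved with the scaling. With the 75th percentile and quantile normalization, Pts was at 0.98 and 0.99 under low IL-3 and at 0.78 in both cases under high IL-3. Qdpr 1423664_at was then at 0.78 and 0.68 under low IL-3 and at 0.76 and 0.66 under high IL-3, and 1437993_x_at was at 0.72 and 0.38 under low IL-3. Relative to the median of all probe sets tested, Pts was higher by 0.68 under low IL-3 and 0.46 under high IL-3, and the Qdpr probe sets by 0.46 and 0.40 under low IL-3 and 0.43 and 0.30 under high IL-3. Median array intensity fell from 0 h to 4 h in both experiments, and its part in these rises was not tested.

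**Figure D3:**
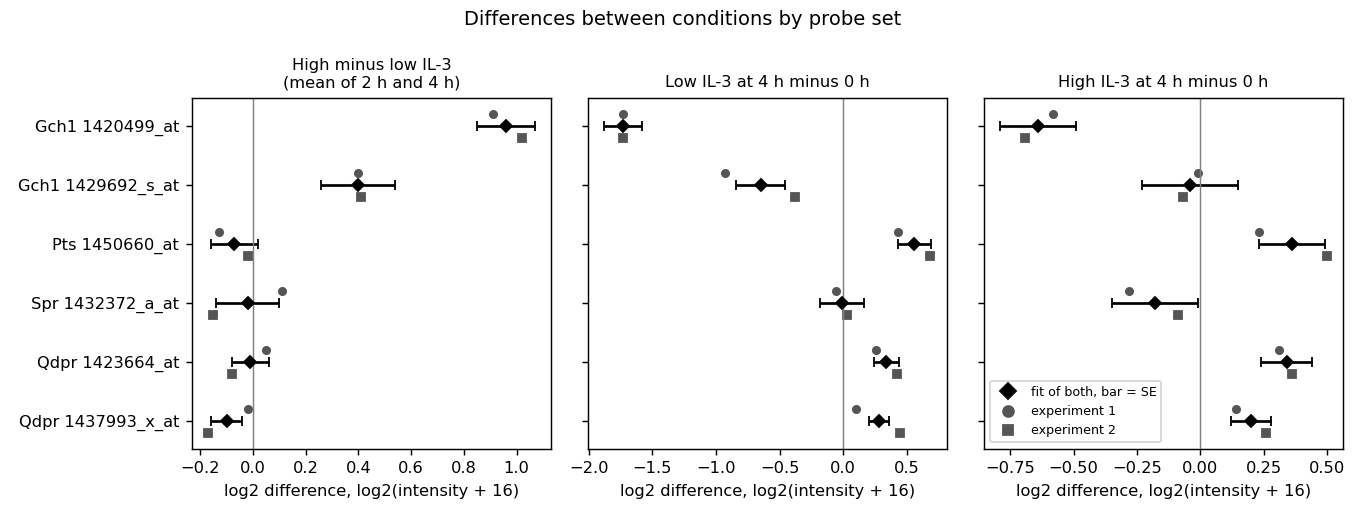
Differences of the 6 tested member probe sets on the log2(intensity + 16) scale (x axis) between conditions, with diamonds for the limma fit, bars for its SE, a point for each experiment and a line at 0. The 2 Gch1 probe sets lie at 0.96 and 0.40 for high minus low IL-3, and the other 4 lie between -0.10 and -0.01.

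Pcbd1 was close to the floor of the array in every group. Probe set 1418713_at had 11.0 at 0 h in experiment 1, 5.12 and 15.1 at 2 h and 4 h under high IL-3, and 19.7 and 9.18 under low IL-3. In experiment 2 it had 11.8 at 0 h, 12.9 and 19.8 under high IL-3, and 25.2 and 15.9 under low IL-3. High IL-3 was below low IL-3 at 2 h and above it at 4 h in both experiments, at intensities where no comparison was tested.

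The experiments also differed in level for Gch1 1420499_at, which was 1.29 to 1.82 times as bright in experiment 2 in all 5 groups. For 1429692_s_at the ratio of experiment 2 to experiment 1 ran from 0.652 to 1.18 and was above 1 in 2 of 5 groups. The Qdpr probe sets differed in the same way, with ratios of 1.10 to 1.27 for 1423664_at and of 0.781 to 0.995 for 1437993_x_at. Probe sets of 1 gene thus did not move together between the experiments, in Gch1 or in Qdpr.

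Over the 10 arrays, with each experiment centred on its own mean, the log2 signal of Gch1 1420499_at correlated with that of 1429692_s_at at r = 0.732, at percentile 83.9 of all probe sets tested, whose median was 0.27. Its correlation was -0.779 with Pts, -0.719 and -0.788 with the Qdpr probe sets, and 0.154 with Spr. Pts and Qdpr correlated with each other at 0.849 and 0.779. These 10 points share their arrays and fall into 5 groups, and no test was made of them.

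The probe sets whose pattern was most like that of Gch1 1420499_at, by the same correlation, were those of Tra2a (0.989), a splicing regulator, Csgalnact2 (0.986), an enzyme of chondroitin sulfate synthesis, Tgds (0.982), Ell2 (0.980), a transcription elongation factor, and Cbwd1 (0.979). They were followed by Polr2c (0.978), a subunit of RNA polymerase II, Timm17a (0.977), of the mitochondrial import machinery, Xiap (0.977), an inhibitor of caspases, Yrdc (0.973), of tRNA modification, and Tiprl (0.972). The correlation follows shape and not size, so that these probe sets differed widely in how much was lost. Csgalnact2 was still at 73.7% of 0 h after 4 h under low IL-3 and at 89.3% under high IL-3. Xiap was at 17.8% and 41.0%, and Cbwd1 at 20.1% and 57.6%, which is nearer to the 27.2% and 62.8% of Gch1. Their high minus low differences over both hours ran from 0.22 in Csgalnact2 to 1.09 in Xiap, with 0.99 in Cbwd1 and 1.02 in Yrdc. The shared direction follows from the choice by likeness to Gch1, itself chosen for its IL-3 effect in these arrays, and is no separate result.

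**Figure D4:**
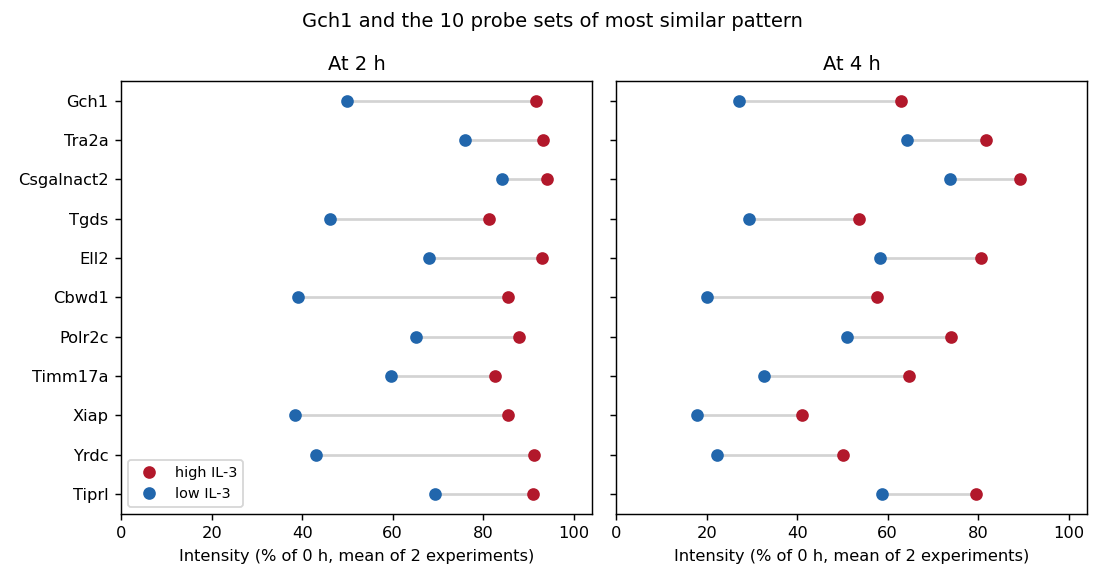
Signal in percent of 0 h (x axis, mean of 2 experiments) at 2 h and 4 h in high and low IL-3 for Gch1 1420499_at and the 10 probe sets with the highest correlation with it (y axis). All 11 lie further to the right under high than under low IL-3, which follows from the choice by likeness to Gch1. At 4 h under low IL-3 they range from 17.8% in Xiap to 73.7% in Csgalnact2.

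Genes around the pathway were little measured at its ends. Of 6 genes for regulation, recycling and salvage of the cofactor, 3 were on the array and 1 was bright enough to test: Pcbd2, a paralog of Pcbd1, with a mean intensity of 1060 and a high minus low difference of -0.09 (adjusted p = 0.855, limma). Cbr1 and Cbr3, carbonyl reductases, had means of 16.7 and 9.38. Of 8 tetrahydrobiopterin-dependent enzymes, 5 were on the array, and only the nitric oxide synthase Nos3 (mean 82.6) was tested, with -0.36 (SE 0.15, adjusted p = 0.489, limma). Its unadjusted p was 0.0293 (limma), with -0.32 in experiment 1 and -0.40 in experiment 2, at a signal not far above the minimum of 50. The other nitric oxide synthases Nos1 and Nos2 and the hydroxylases Th and Tph1 had means between 2.23 and 9.97.

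Genes of GTP supply and of related cofactors were better covered. None passed between media, where 0.692% of all probe sets tested were called higher and 0.0169% lower. In lists this short, 0 calls is near that share. Of the 18 probe sets for 11 genes of purine and GTP synthesis, limma called 0 for high minus low IL-3, and 1 had an unadjusted p under 0.05 (Ppat, 0.23, adjusted p = 0.564). Over 4 h under low IL-3, 3 rose and 5 fell, with a median of -0.01, and under high IL-3, 1 rose and 5 fell, with a median of 0. Over all probe sets tested, 15.3% were called higher and 38.3% lower under low IL-3, and 9.67% and 35.4% under high IL-3. Ppat, amidophosphoribosyltransferase, which commits the purine pathway, fell in its 2 probe sets, with -1.86 and -1.52 (log2) under low IL-3 and -1.56 and -1.24 under high IL-3. Both Ppat probe sets passed under all 19 alternatives in both media, whereas the calls lower of Adsl (-0.45 under low IL-3) and of 2 of the 3 Gart probe sets (-0.49 and -0.36), later steps of the pathway, were lost with the 75th percentile and quantile normalization, where the smaller Gart value turned to 0.07 and 0.01. That Gart call passed under 7 of 19 alternatives, and the remaining Gart probe set had -0.25 (adjusted p = 0.0514, limma). Prps2, which makes the phosphoribosyl donor, rose in 1 of its 2 probe sets by 0.53 under low IL-3 and 0.51 under high IL-3, while the other had 0.29 and 0.18 (adjusted p = 0.147 and 0.388, limma). The call was lost without 0 h from experiment 2 (adjusted p = 0.0672 under low and 0.0918 under high IL-3) or without the 4 h array of experiment 2 (0.0535 and 0.0761). Nme1, a nucleoside diphosphate kinase, rose under low IL-3 by 0.24 in 1 of its 2 tested probe sets. That call held when any 1 array was left out but not without the variance trend (adjusted p = 0.0547) or the replicate block (0.0769), and the other Nme1 probe set had 0.03 (adjusted p = 0.746, limma). Impdh1, of guanine nucleotide synthesis, had 0.34 (adjusted p = 0.0432, limma) and passed under 10 of 19 alternatives. Without low IL-3 at 4 h from experiment 2, 5 of the 8 purine calls under low IL-3 were left.

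Of the 16 folate probe sets for 7 genes, 0 passed for high minus low IL-3 by limma, and 0 had an unadjusted p under 0.05. The shares called between media over all probe sets tested were again 0.692% higher and 0.0169% lower. In each medium 1 rose and 5 fell over 4 h, with medians of -0.21 under low IL-3 and -0.16 under high IL-3, beside the same 38.3% and 35.4% called lower over all probe sets tested and 15.3% and 9.67% called higher. Those that fell were Fpgs, which adds glutamate to folates, with -0.85 under low IL-3 and -0.83 under high IL-3, and the 4 probe sets of Shmt1, serine hydroxymethyltransferase, with -1.26 to -0.82 and -1.42 to -0.95. The one that rose was Ggh, which removes glutamate, by 0.52 and 0.38. The call of Ggh under high IL-3 was lost without 0 h from experiment 2 (adjusted p = 0.180) or without high IL-3 at 4 h from experiment 1 (0.106) or 2 (0.0907).

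Molybdopterin is the other pterin made from GTP. None of its 4 probe sets for 2 genes passed for high minus low IL-3 by limma, and 0 had an unadjusted p under 0.05. Over all probe sets tested, 0.692% were called higher and 0.0169% lower between media. Gphn, gephyrin, which also anchors inhibitory receptors at synapses, fell in both probe sets, with -1.22 and -1.11 under low IL-3 and -1.30 and -1.18 under high IL-3, and did so with all 19 alternatives. Mocs2, a subunit of molybdopterin synthase, rose by 0.41 and 0.75 under low IL-3 and by 0.37 and 0.59 under high IL-3. Over 4 h the list thus had 2 calls in each direction in each medium, of 4 probe sets, with the 4 h shares over all probe sets tested as given above. Under high IL-3, leaving out 0 h from experiment 2 or high IL-3 at 4 h from experiment 1 left 2 of these 4 calls, those of Gphn. The smaller of the Mocs2 values under low IL-3 was not called without 0 h from experiment 2 (adjusted p = 0.179) or low IL-3 at 4 h from experiment 2 (0.123), nor that under high IL-3 without high IL-3 at 4 h from experiment 2 (0.207).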

How the data were processed

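The intensity values were deposited by the authors, who normalized the 10 hybridizations together as 1 batch with dChip at its default settings. The dChip release is not given in the sources read. The array number limits precision. Symbols of the platform annotation (20393 probe sets with 1 gene, 691 with several, 1606 with none) were updated through gene IDs of a RefSeq table (GRCm38.p6) for 20364. The 11856 probe sets whose mean was at least 50 were tested as log2(intensity + 16) by limma 3.58.1 in R 4.3.3 with a variance trend, the 5 groups and the experiment as a block, and Benjamini-Hochberg adjustment over all of them at 0.05. The limma fit was tried on simulated data for the high minus low IL-3 contrast only, and the other contrasts, the score, the half-lives and the correlations were not. The block follows from the divided culture and from the ratios within an experiment that the study takes, and arrays of an experiment deviated together (correlations 0.762 to 0.887 over 10 pairs of groups). A half-life is ln 2 divided by the fitted loss per hour of ln(ratio), starting from 0 h. The score divides the area between decay curves, with high IL-3 ratios above 1 set to 1, by the variability among the 500 neighbours to each side in 0 h signal, leaving out the 6 largest differences, an assumption. Named were all member probe sets, Gapdh, the 10 probe sets most like Gch1, and of each pathway list those that passed or, failing that, the one of smallest p. The members and lists were chosen with earlier results of these data known. Alternatives were pseudocounts of 1 and 64, no filter or 200, scaling by the 75th percentile or Gapdh, quantile normalization, no block, no trend, and each array left out. Their use on the pathway lists was added after seeing the data. Sequence features were not analysed here. Python 3.11.15, pandas 2.3.3, numpy 2.4.6 and matplotlib 3.10.9 were used.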

Additional observations from a re-analysis of the deposited data

Results flagged for a closer look

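The high minus low IL-3 difference of Pcbd1 (1418713_at) ran in opposite directions at 2 h and 4 h in both experiments, with a mean change of 0.87 on the log2(intensity + 16) scale (1.06 in experiment 1 and 0.68 in experiment 2). The difference was not tested, as the mean intensity of 14.6 was under the minimum.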

How the results depend on the processing

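With 2 arrays per group, the number of arrays and the low signal of Pcbd1 limit what can be seen. The cause of the following changes was not tested. For high minus low IL-3, 82 probe sets were called higher and 2 lower, against 22 and 1 with no filter, 12 and 1 without the variance trend, 54 higher with a filter of 200 and 1 lower with the 75th percentile. Leaving out 1 array gave 19 to 152 higher and 2 to 7 lower. By array, the counts higher were 44 and 152 without high IL-3 at 2 h of experiments 1 and 2, 40 and 32 without high IL-3 at 4 h, 19 and 51 without low IL-3 at 4 h, and 30 without low IL-3 at 2 h of experiment 2, and those lower were 7 and 5 without high IL-3 at 2 h. For the change of this difference from 2 h to 4 h, 0 were called in either direction, against 1 higher with a filter of 200 and 2 with Gapdh scaling, and 0 to 13 higher and 0 to 134 lower without 1 array, the largest counts being without high IL-3 at 2 h of experiment 2 (13 and 134) and of experiment 1 (9 and 4). Over 4 h in low IL-3, 1819 were higher and 4535 lower, against 5836 and 2854 with the 75th percentile, 4807 higher with quantile normalization and 2970 lower with a filter of 200. Without 1 array, 718 to 2003 were higher (837 without 0 h and 718 without low IL-3 at 4 h of experiment 2). Over 4 h in high IL-3, 1147 were higher and 4201 lower, against 5922 and 2617 with the 75th percentile, 4696 higher with quantile normalization, and 738 and 2732 with a filter of 200. Without 1 array, 366 to 1292 were higher (366 without 0 h of experiment 2, and 693 and 425 without high IL-3 at 4 h of experiments 1 and 2).

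Without the replicate block, which ignores the shared culture, 0 probe sets were called for high minus low IL-3 in either direction by limma (162 at an unadjusted p under 0.05), 148 higher and 2148 lower over 4 h in low IL-3, and 38 and 1804 in high IL-3. The adjusted p of Pts was then 0.0678 in low and 0.247 in high IL-3, and those of the Qdpr probe sets were 0.254 and 0.282 in low IL-3 and, for 1423664_at, 0.306 in high IL-3, so that none passed. Over 4 h in low IL-3, the calls left without the block were 2 in the purine list, 3 in the folate list and 2 in the molybdopterin list. Those of Fpgs (adjusted p = 0.0917 in low and 0.114 in high IL-3, limma), Ggh (0.057 and 0.169) and Mocs2 were lost in both media.

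The high minus low difference of Gch1 1420499_at (0.96) was 1.05 and 0.78 with pseudocounts of 1 and 64 and 0.88 to 1.05 without 1 array. That of 1429692_s_at (0.40) was 0.45 and 0.31 with these pseudocounts, 0.42 with Gapdh scaling, 0.39 with quantile normalization and 0.28 to 0.53 without 1 array. The change of 1429692_s_at over 4 h in high IL-3 (-0.04) turned to 0.36, 0.01 and 0.40 with the 75th percentile, Gapdh and quantile scaling, and ran from -0.17 to 0.09 without 1 array (0.05 without 0 h of experiment 1 and 0.09 without high IL-3 at 4 h of experiment 2). That of Spr in low IL-3 (-0.01) turned to 0.40 with quantile normalization. With the 75th percentile, Adsl in high IL-3 went to 0 and 1 Gart probe set in low IL-3 to 0.07, and with quantile normalization the latter to 0.01. With a filter of 200, Gch1 1429692_s_at and Spr were not tested. For high minus low IL-3, no other enzyme of the pathway passed under any alternative.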
